A study of Rattus norvegicus with 22 samples.

Results

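NF-kB feedback genes and chemokines form a set of 10 genes chosen by symbol. They are the feedback genes Nfkbia, Nfkbiz and Tnfaip3, the chemokines Cxcl1, Cxcl2, Ccl2, Ccl3, Cxcl10 and Cxcl11, and the transcription factor Irf1. A gene was represented by the probe set that carries its symbol alone, and 9 of the 10 had 1 such probe set each, out of 18166 genes on the arrays. The expression of Tnfaip3, which had no such probe set in the annotation used here, was not analysed, and only its promoter is described. Livers of 22 female Crl:CD(SD) rats, an outbred Sprague-Dawley stock, were compared, each on its own Affymetrix array. Of these rats, labelled as 12 weeks old, 10 had received 50 mg/kg GSK932121A, described in the series title as a complex III inhibitor of the mitochondrial electron transport chain, and 12 had received the formulation without the compound (vehicle). Both groups were dosed once by the intraperitoneal route at 10 mL/kg. The treated livers were labelled with 5 hours of treatment, and no time was labelled for the vehicle livers. The study dosed 12 rats per group, and 2 treated rats were left out by the submitters because little compound was found in their plasma. The compound is a research inhibitor given at a dose labelled as acutely toxic to rats, and the tissue was whole median lobe, so hepatocytes and all other liver cells were read together.

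NF-kB is a family of transcription factors held in the cytoplasm by IkB proteins. Signals such as tumour necrosis factor, interleukin-1 and bacterial products activate the IkB kinase, IkB is degraded, and the freed factors switch on chemokine genes together with genes for their own inhibitors, which close the loop. In liver these genes are used by hepatocytes, Kupffer cells and endothelium, and the chemokines they encode draw neutrophils, monocytes or lymphocytes out of the blood. Cxcl10, Cxcl11 and Irf1 are best known as genes induced by interferons.

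The promoter sequences of the members are shown because each window found holds the same element, whichever way the gene moved. RefSeq promoter windows (build GRCr8, 250 bases before to 50 bases after the gene start) were matched by symbol for 8 of the 10 genes, Tnfaip3 included. No window was found for Ccl2 and Ccl3. The NF-kB consensus, searched on both strands as GGGRNNYYCC (R for A or G, Y for C or T, N for any base), was present in 8 of these 8 windows, against 7.51% of all 33469 windows. The set was put together as genes of the NF-kB pathway, so this contrast is no independent test. The window of Cxcl10 held 2 matches that did not overlap each other, and the other 6 measured members had 1 each. Each stretch below runs 5′ to 3′ on the strand of its gene, stays before the gene start, and has the match in capitals.
Nfkbia, chr6:78597073-78597128, minus strand: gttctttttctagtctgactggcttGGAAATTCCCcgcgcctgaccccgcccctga
Nfkbiz, chr11:58251683-58251720, plus strand: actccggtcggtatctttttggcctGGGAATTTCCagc
Cxcl1, chr14:17479371-17479430, minus strand: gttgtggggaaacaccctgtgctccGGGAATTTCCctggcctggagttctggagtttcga
Cxcl2, chr14:17467295-17467354, minus strand: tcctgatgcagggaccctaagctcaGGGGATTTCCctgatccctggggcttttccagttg
Cxcl10, chr14:15988854-15988913, plus strand: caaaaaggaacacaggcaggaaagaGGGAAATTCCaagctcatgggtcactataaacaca
Cxcl10, chr14:15988913-15988972, plus strand: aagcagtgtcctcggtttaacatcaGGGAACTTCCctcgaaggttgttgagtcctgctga
Cxcl11, chr14:15973629-15973688, plus strand: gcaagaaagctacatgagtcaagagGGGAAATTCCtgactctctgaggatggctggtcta
Irf1, chr10:38417845-38417904, plus strand: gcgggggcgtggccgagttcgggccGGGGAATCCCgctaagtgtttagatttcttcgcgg

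Among the measured members the first base of the match lay between 13 bases (Nfkbiz) and 187 bases (the farther match of Cxcl10) before the gene start. The match of Cxcl1 also reads as the consensus on the opposite strand 1 base further on, as does the nearer match of Cxcl10, and the match of Cxcl2 reads again 1 base further on the same strand. Such overlapping readings were counted once. The interferon-stimulated element, searched on both strands as GAAA, any 2 bases, and GAAA again, was found in 1 of the 8 windows, that of Cxcl10, against 3.92% of all windows. The STAT element, searched as TTCNNNGAA, was found in the windows of Irf1 and Cxcl11 (8.87% of all windows), and the AP-1 element, searched as TGANTCA, in those of Tnfaip3, Cxcl10 and Cxcl11 (7.33%). Both of these read alike on either strand. A match of letters is a description of the window and not a measured binding site.

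**Figure D1:**
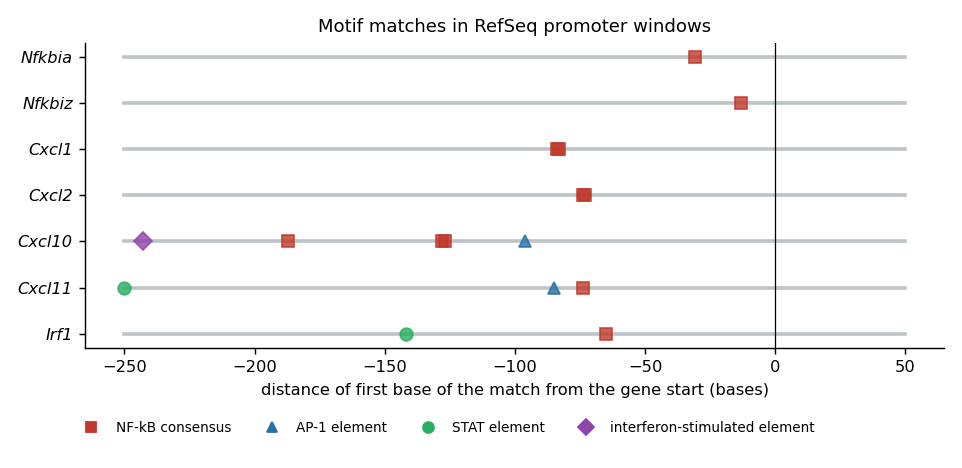
Positions of motif matches in the promoter windows of the 7 measured members that had one. The x axis is the distance in bases of the first base of a match from the gene start (vertical line), and each grey line is 1 window; NF-kB consensus matches (red squares) lie between 13 and 187 bases before the start, and the interferon-stimulated element is found only for Cxcl10.

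Across the members, Nfkbia, Nfkbiz, Ccl3 and the neutrophil chemokines Cxcl1 and Cxcl2 were higher after GSK932121A, while Cxcl11 and Irf1 were lower. Of the 9 measured members, 5 rose (Nfkbia, Nfkbiz, Cxcl1, Cxcl2 and Ccl3), 2 fell (Cxcl11 and Irf1) and 2 did not pass (Ccl2 and Cxcl10), by limma with Benjamini-Hochberg adjustment over all genes and a threshold of 0.05. Over all 18166 genes tested, 5.31% rose, 7.05% fell and 12.4% did either. The median log2 difference was 0.78 over the 9 members and -0.01 over all genes. The members were chosen with earlier results of these data known, so this contrast is a description and no independent test of the set. Values below are on the log2 scale of the deposited arrays, where the median gene of an array lay between 5.34 and 5.40. All arrays had closely similar distributions, and any pair of arrays correlated at 0.971 to 0.99 across genes, whose values are no independent replicates. In whole liver, a change in the number of cells of a type and a change in RNA per cell cannot be told apart.

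**Figure D2:**
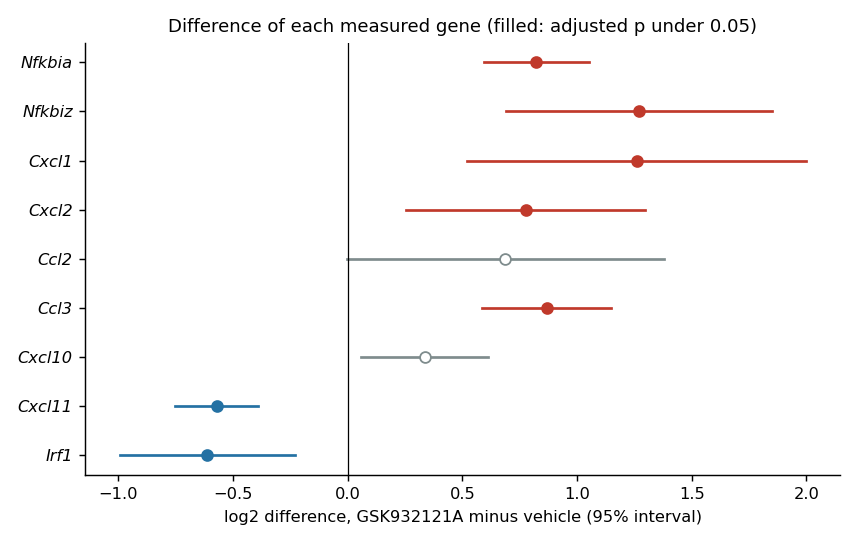
Log2 difference between GSK932121A and vehicle livers for each measured member, with its 95% interval from the limma fit. Filled points passed at an adjusted p under 0.05 (red higher, blue lower after GSK932121A). The 5 rises have intervals above 0, and Cxcl11 and Irf1 lie below 0. Ccl2 and Cxcl10 did not pass, although the interval of Cxcl10 also lies above 0. The intervals are not adjusted for the number of genes.

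The feedback genes were taken first. Nfkbia encodes IkB alpha, the inhibitor that NF-kB itself re-makes after activation. Its log2 value ran from 8.08 to 8.85 with a median of 8.61 in GSK932121A livers, and from 7.28 to 8.14 with a median of 7.68 in vehicle livers. The groups met at their edges only: 9 of 10 treated livers lay above the highest vehicle liver (vehicle replicate 9), and the remaining one, replicate 17, lay just inside the vehicle range. Of the 9, treated replicate 20 exceeded vehicle replicate 9 by less than the printed digits show (8.14 each). The means were 8.51 ± 0.29 in the 10 GSK932121A livers and 7.69 ± 0.26 in the 12 vehicle livers (SD), a 1.77-fold rise (limma, adjusted p = 1.25e-05; 95% interval 1.51-fold to 2.07-fold). This call held under each of the alternative settings tried. The log2 difference was 0.82, and 0.51 when surrogate variables, which stand for hidden factors shared by many genes, were fitted (adjusted p = 0.00287).

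Nfkbiz encodes IkB zeta, an inducible nuclear IkB protein that in mouse macrophages is needed for a second wave of NF-kB genes. It spanned 6.12 to 9.05 with a median of 8.09 in GSK932121A livers, and 6.07 to 6.91 with a median of 6.58 in vehicle livers. Treated livers were split widely: 7 of 10 lay above the highest vehicle liver, and replicate 17 sat near the bottom of the vehicle range. The means were 7.84 ± 1.07 in the 10 GSK932121A livers and 6.57 ± 0.24 in the 12 vehicle livers (SD), a 2.41-fold rise (limma, adjusted p = 0.00287). The log2 difference was 0.24 once surrogate variables were fitted, and it no longer passed (adjusted p = 0.676).

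The spread of Nfkbiz itself differed between the groups. Its mean absolute deviation from the group median was 0.99 among treated livers and 0.18 among vehicle livers, and its SD was 4.38 times as large after GSK932121A, against a median ratio of 1.01 over all genes. Limma on these deviations over all genes gave an adjusted p of 0.0228, and 0.0771% of all genes (14 of 18166) were called wider after GSK932121A in this way. The call was lost when any of 6 livers was left out (vehicle replicate 9 or treated replicates 16, 17, 20, 21 or 24; adjusted p up to 0.995 without treated replicate 24), with the difference in deviation between 0.64 and 0.84 over all such refits. The other 8 members did not pass this test of spread. Cxcl2, Ccl3 and Cxcl1 had SDs 3.32, 2.04 and 1.94 times as large among treated livers, with adjusted p of 0.914, 0.728 and 0.914. In simulated data this test called 4 of 100 genes whose SD was raised 4-fold in the treated group, so a spread that did not pass is not shown to be equal.

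Cxcl1 and Cxcl2 encode chemokines that recruit neutrophils through the receptor CXCR2. Cxcl1 ran from 5.60 to 8.84 with a median of 6.14 in GSK932121A livers, and from 4.63 to 7.00 with a median of 5.34 in vehicle livers. Only 4 of 10 treated livers (replicates 16, 20, 22 and 23) lay above the highest vehicle liver, replicate 3, and the other 6 lay inside the vehicle range. The means were 6.73 ± 1.22 in the 10 GSK932121A livers and 5.47 ± 0.63 in the 12 vehicle livers (SD), a 2.40-fold rise (limma, adjusted p = 0.0192; 95% interval 1.44-fold to 4.00-fold). Cxcl1 no longer passed by the Welch test (adjusted p = 0.082) or against a 1.2-fold change (0.2). Once surrogate variables were fitted its log2 difference was 1.39, against 1.26 without them, and did not pass (adjusted p = 0.175).

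Cxcl2 ran from 4.74 to 8.03 with a median of 5.47 in GSK932121A livers, and from 4.49 to 5.43 with a median of 4.83 in vehicle livers. Treated replicate 14 stood alone at 8.03, the next treated liver was replicate 18 at 6.15, and 6 of 10 treated livers lay above the vehicle range. Of these 6, treated replicate 22 exceeded vehicle replicate 8, the highest vehicle liver, by less than the printed digits show (5.43 each). The means were 5.67 ± 0.94 in the 10 GSK932121A livers and 4.89 ± 0.28 in the 12 vehicle livers (SD), a 1.71-fold rise (limma, adjusted p = 0.0435). The vehicle mean lay below the median gene of every array, and a fold from so dim a signal can be understated. The log2 difference was 0.78 with all livers and 0.51 without treated replicate 14 (adjusted p = 0.0236).

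The call of Cxcl2 was lost when any of 14 livers was left out (adjusted p up to 0.0805, without treated replicate 18), with the Welch test (adjusted p = 0.154), an intensity trend and robust settings (0.07), all probe sets tested (0.0823) and a test against a 1.2-fold change (0.707). The difference was -0.08 with surrogate variables (0.916). Cxcl1 and Cxcl2 are close paralogs, so probes for one may read the transcripts of the other. Such cross-reading was not tested. The highest treated livers were replicates 20 and 16 for Cxcl1 and replicates 14 and 18 for Cxcl2, and the correlation of their values among treated livers did not pass (Pearson's r = -0.172, permutation p = 0.67; Spearman's rho = 0.152, permutation p = 0.68; n = 10). The related Cxcl3 did not pass, at 2.68 ± 0.18 after GSK932121A and 2.66 ± 0.16 after vehicle (limma, adjusted p = 0.929), both far below the median gene.

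Ccl3 encodes macrophage inflammatory protein-1 alpha, a chemokine that attracts monocytes and lymphocytes. It ran from 5.20 to 6.43 with a median of 5.98 in GSK932121A livers, and from 4.61 to 5.28 with a median of 5.02 in vehicle livers. All but 1 of the treated livers, replicate 24, lay above the vehicle range. The means were 5.87 ± 0.45 in the 10 GSK932121A livers and 5.00 ± 0.22 in the 12 vehicle livers (SD), a 1.82-fold rise (limma, adjusted p = 8.14e-05), and a log2 difference of 0.87 that was 0.47 and no longer passed with surrogate variables (adjusted p = 0.0702). In the RefSeq gene table Ccl3 is overlapped by another locus, LOC103693406, which was not measured here, and its share in the Ccl3 signal was not tested. The vehicle mean lay below the median gene of every array.

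Ccl2, monocyte chemoattractant protein-1, draws monocytes through CCR2. It ran from 6.32 to 8.60 with a median of 6.78 in GSK932121A livers, and from 5.48 to 9.21 with a median of 6.26 in vehicle livers. The highest value of all 22 livers belonged to vehicle replicate 3, at 9.21, while the next vehicle liver stood at 6.80, so that 0 of 10 treated livers lay above the vehicle range. The log2 difference was 0.69 ± 0.34 (SE) and did not pass (limma, adjusted p = 0.212; 95% interval -0.00 to 1.38). Without vehicle replicate 3 the difference was 0.94 and passed (adjusted p = 0.00956), and then 6 members rose in place of 5. Without treated replicate 24, which held the highest treated value, the difference was 0.52 (adjusted p = 0.347). The same vehicle liver also held the highest vehicle values of Cxcl1 (7.00) and Nfkbiz (6.91).

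**Figure D3:**
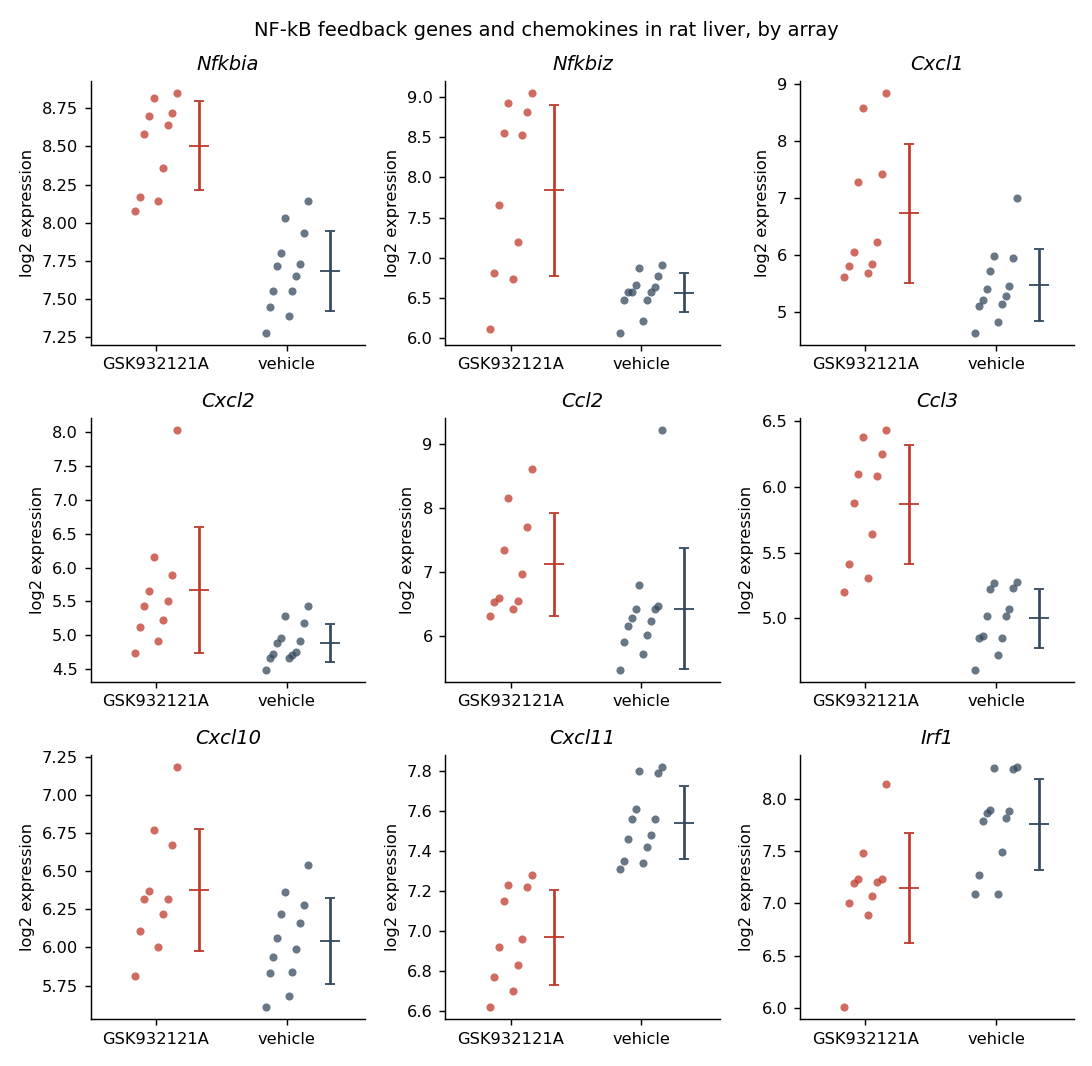
Log2 expression of each measured member, with 1 point per liver; bars beside the points give the mean and SD of 10 GSK932121A livers (red) and 12 vehicle livers (dark). The groups are apart for Cxcl11 and nearly so for Nfkbia and Ccl3, Cxcl2 has 1 treated liver at 8.03, and Ccl2 has 1 vehicle liver at 9.21.

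Of the 3 interferon-inducible members, 2 fell and 1 did not pass. Cxcl11, a ligand of CXCR3 on activated T cells, ran from 6.62 to 7.28 with a median of 6.94 in GSK932121A livers, and from 7.31 to 7.82 with a median of 7.52 in vehicle livers. The groups did not overlap: all 10 treated livers lay below the lowest vehicle liver, as they did for 0.281% of all genes, while 0.738% of all genes had groups apart in either direction. The means were 6.97 ± 0.24 in the 10 GSK932121A livers and 7.54 ± 0.18 in the 12 vehicle livers (SD), a 1.49-fold fall (limma, adjusted p = 6.71e-05). Cxcl11 missed the threshold once surrogate variables were fitted (log2 difference -0.39, against -0.57 without them; adjusted p = 0.0563) and when tested against a 1.2-fold change (adjusted p = 0.0517).

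Irf1 encodes interferon regulatory factor 1, a transcription factor induced by interferon-gamma and by NF-kB. It ran from 6.01 to 8.14 with a median of 7.20 in GSK932121A livers, and from 7.09 to 8.30 with a median of 7.84 in vehicle livers. The groups overlapped, with 4 of 10 treated livers below the lowest vehicle liver and treated replicate 20 near the top of the vehicle range. The means were 7.14 ± 0.53 in the 10 GSK932121A livers and 7.76 ± 0.44 in the 12 vehicle livers (SD), a 1.53-fold fall (limma, adjusted p = 0.0285). The call was lost without vehicle replicates 2 or 5 or treated replicates 13 or 23 (adjusted p up to 0.0587), with the Welch test (0.0702), the Wilcoxon rank sum test (0.0585), all probe sets tested (0.0565) and a test against a 1.2-fold change (0.864). With surrogate variables the log2 difference was -0.23 (adjusted p = 0.664).

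Cxcl10, another CXCR3 ligand, ran from 5.81 to 7.18 with a median of 6.32 in GSK932121A livers, and from 5.61 to 6.54 with a median of 6.02 in vehicle livers. Most treated livers lay inside the vehicle range, and 3 of 10 lay above it. The log2 difference was 0.34 ± 0.13 (SE) and did not pass (limma, adjusted p = 0.113; 95% interval 0.06 to 0.61). Cxcl9, the remaining CXCR3 ligand, did not pass either, at 5.89 ± 0.34 in the 10 GSK932121A livers and 6.19 ± 0.35 in the 12 vehicle livers (SD; limma, adjusted p = 0.17). In the RefSeq gene table Art3, an ADP-ribosyltransferase gene, spans both Cxcl10 and Cxcl11. Art3 itself did not pass: it differed by -0.04 ± 0.14 on the log2 scale (SE; limma, adjusted p = 0.895).

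The members that rose did not all rise in the same livers. Among treated livers the 4 lowest values of Nfkbia, Nfkbiz, Cxcl2 and Ccl3 belonged to the same 4 animals, replicates 17, 20, 21 and 24, and replicates 14 and 18 were among the 4 highest for each of these genes. With the 3 lowest and 3 highest values, these genes shared only replicates 17 and 24 at the bottom and replicate 18 at the top. Cxcl1 followed another order, with its highest value in replicate 20. Of 36 pairs of members in each group, 72 in all, 2 passed among treated livers and 1 among vehicle livers by Pearson's r with a permutation test adjusted over the 72 pairs, and 0 passed by Spearman's rho in either group.

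Nfkbia and Ccl3 were correlated among treated livers (Pearson's r = 0.92, permutation p = 0.00061, adjusted p = 0.032; Spearman's rho = 0.83, permutation p = 0.0049, adjusted p = 0.12; n = 10). Without the 2 livers farthest from the median of Nfkbia, r was 0.881. Among vehicle livers the same pair gave r = -0.115 (permutation p = 0.72, adjusted p = 0.94) and rho = -0.14 (permutation p = 0.67; n = 12). The difference between the groups' correlations was not tested.

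Nfkbia and Nfkbiz were correlated among treated livers (Pearson's r = 0.899, permutation p = 0.00099, adjusted p = 0.032; Spearman's rho = 0.879, permutation p = 0.0015, adjusted p = 0.11; n = 10), with r = 0.867 without the 2 farthest livers. In vehicle livers r was 0.474 (permutation p = 0.12; n = 12) and rho 0.58 (permutation p = 0.052). For Cxcl1 and Nfkbia the correlation among treated livers did not pass (r = 0.024, permutation p = 0.95; rho = 0.127, permutation p = 0.73; n = 10). The pair that passed in vehicle livers was Cxcl1 and Ccl2 (r = 0.861, permutation p = 0.0013, adjusted p = 0.032; rho = 0.643, permutation p = 0.028, adjusted p = 0.24; n = 12), with r = 0.676 without the 2 livers farthest from the median of Cxcl1. The same pair gave r = -0.146 (permutation p = 0.69; n = 10) and rho = -0.091 (permutation p = 0.81) among treated livers.

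**Figure D4:**
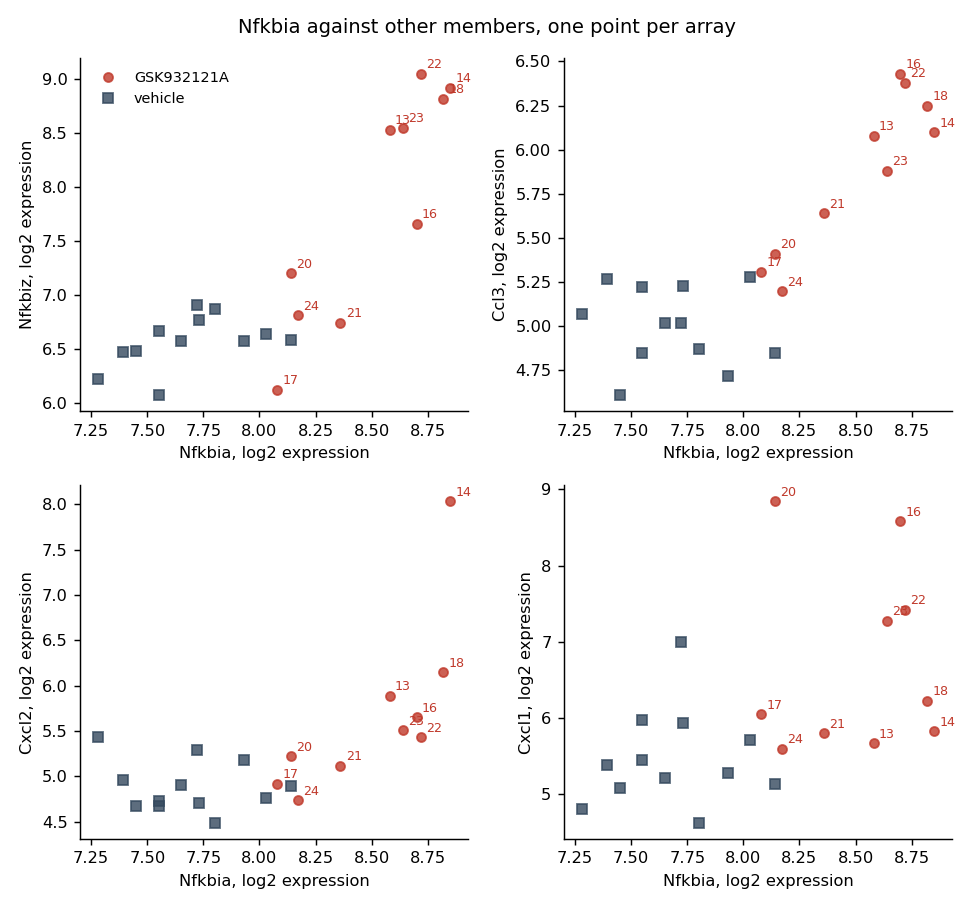
Log2 expression of Nfkbiz, Ccl3, Cxcl2 and Cxcl1 (y axes) against that of Nfkbia (x axes), with 1 point per liver; GSK932121A livers are red circles marked with their replicate number, and vehicle livers are dark squares. Treated replicates 17, 20, 21 and 24 lie low for Nfkbia, Nfkbiz, Ccl3 and Cxcl2, whereas replicate 20 is highest for Cxcl1.

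For each member that passed, the other gene of the arrays with the most similar profile over the 10 treated livers was looked up among 18157 genes, as a description of the maximum and without a test. For Nfkbia this was Zfp36, encoding the mRNA decay factor tristetraprolin (r = 0.978 among treated and 0.8 among vehicle livers). For Nfkbiz it was Jun, a subunit of AP-1 (r = 0.964 and 0.577), and for Ccl3 it was Gadd45g, a stress-response gene (r = 0.958 and 0.354). Zfp36, Jun and Gadd45g all rose after GSK932121A (limma, adjusted p = 1.69e-05, 0.000682 and 3.9e-07). The most similar genes of Cxcl1, Cxcl2, Cxcl11 and Irf1 were Msh4, Or2t47e, Gfra2 and Reep3, none of which passed, with r between 0.908 and 0.94 among treated livers and between -0.012 and 0.247 among vehicle livers. The first 3 of these lay below the median gene of the arrays.

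Further genes of the pathway were read from 8 lists covering NF-kB subunits, adaptors, brakes, upstream cytokines, other targets, other chemokines, chemokine receptors and other interferon genes. Of 175 measured genes outside the members, 22 rose and 10 fell, which is 18.3% called against 12.4% of all genes, with a median log2 difference of 0.04. The lists were also chosen with earlier results of these data known, so this contrast is no independent test either. With surrogate variables 12 of these 32 calls held. Those that held were Bcl3, Irak3, Tirap, Zfp36, Socs3, Zc3h12a, Il1rn, Il1r1, Il6r, Gadd45b, Tnfaip2 and Cxcl12.

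NF-kB subunits and other IkB proteins had 4 rises and no fall among 9 measured genes. Bcl3, a nuclear IkB protein that partners with the p50 and p52 subunits, was at 7.96 ± 0.51 in the 10 GSK932121A livers and 6.43 ± 0.36 in the 12 vehicle livers (SD), a 2.89-fold rise (limma, adjusted p = 7.06e-07). The subunit genes Rel and Relb rose 1.35-fold each, and Rela, which encodes p65, rose 1.17-fold (limma, adjusted p = 0.0496), a call lost when any of 17 livers was left out (adjusted p up to 0.103, without treated replicate 14). Nfkb1, the gene of p50, did not pass, its log2 difference being 0.06 ± 0.09 (SE; adjusted p = 0.756), nor did Nfkb2, at 0.28 ± 0.11 (adjusted p = 0.106). The IkB genes Nfkbib, Nfkbie and Nfkbid did not pass either, at -0.05 ± 0.10, -0.12 ± 0.07 and -0.09 ± 0.08 (limma, adjusted p = 0.837, 0.3 and 0.525).

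Among 22 adaptors and kinases, 1 rose and 3 fell. Irak3, a kinase-like brake on Toll-like and interleukin-1 receptor signalling, rose 1.45-fold (limma, adjusted p = 0.00224). Tirap, an adaptor of Toll-like receptors 2 and 4, fell 1.45-fold with all 10 treated livers below the vehicle range, and the IkB kinase regulator Ikbkg and the TAK1 partner Tab1 fell 1.27-fold and 1.18-fold, the call of Tab1 being lost without treated replicate 13 (limma, adjusted p = 0.0553). Other brakes and mRNA decay factors had 5 rises and no fall among 16 genes. Zfp36, which marks chemokine mRNAs for decay, rose 3.27-fold and its relative Zfp36l2 1.93-fold. Socs3, an inhibitor of cytokine receptor signalling through STAT3, rose 3.11-fold, Tsc22d3, a glucocorticoid-induced inhibitor of NF-kB, 1.66-fold, and Zc3h12a, an RNase that cuts cytokine mRNAs, 1.25-fold.

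Upstream cytokines and receptors had 5 rises and 1 fall among 25 genes. Il1rn, the secreted antagonist of the interleukin-1 receptor, was at 10.15 ± 0.94 in the 10 GSK932121A livers and 7.72 ± 0.47 in the 12 vehicle livers (SD; limma, adjusted p = 1.01e-06). The receptor genes Il1r1, Il6r and Tnfrsf1a rose 2.27-fold, 1.90-fold and 1.45-fold, Il18 rose 1.42-fold, and Tlr3, a receptor for double-stranded RNA, fell 1.33-fold. Tnf and Il1b did not pass: Tnf was at 4.63 ± 0.10 after GSK932121A and 4.69 ± 0.18 after vehicle (adjusted p = 0.697), and Il1b was at 5.47 ± 0.32 after GSK932121A and 5.72 ± 0.22 after vehicle (adjusted p = 0.146). Il1a, at 8.03 ± 0.84 after GSK932121A and 7.53 ± 0.18 after vehicle (adjusted p = 0.159), was among the 14 genes with a wider spread after GSK932121A (limma on deviations, adjusted p = 0.0426). Il6 stood at 3.25 ± 0.46 after GSK932121A and 3.09 ± 0.19 after vehicle (limma, adjusted p = 0.493). Both Il6 and Tnf lay below the median gene in both groups.

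Other NF-kB target genes had 3 rises and 2 falls among 22. Gadd45b, a stress gene that restrains JNK signalling, rose 11.9-fold, Junb, a subunit of AP-1, 2.93-fold and Bcl2l1, a survival gene, 1.48-fold, while Tnfaip2 fell 1.88-fold and Csf1, the macrophage growth factor, 1.26-fold. The call of Csf1 was lost when any of 12 livers was left out. Among the 17 that did not pass were the adhesion molecule Icam1 (log2 difference 0.11 ± 0.07 SE; limma, adjusted p = 0.389), the superoxide dismutase Sod2 (0.09 ± 0.08; 0.539) and the inducible nitric oxide synthase Nos2 (0.17 ± 0.08; 0.185). Of 28 other chemokines, 1 rose and 2 fell. Ccl4, a relative of Ccl3, rose 1.29-fold, whereas Cxcl12, the ligand of CXCR4, fell 1.48-fold and Ccl9 1.18-fold. Of 20 chemokine receptors, Cxcr4 and Ccrl2 rose, by 0.40 and 0.27 on the log2 scale, and none fell. By mean over all arrays, 16 of these 20 receptors and 15 of the 28 other chemokines lay below the median gene. Ccrl2 lay below it in both groups, at 4.39 ± 0.21 after GSK932121A and 4.12 ± 0.19 after vehicle. Cxcr4 lay below it in vehicle livers, at 5.06 ± 0.16. The call of Ccl4 was lost without treated replicate 18 (limma, adjusted p = 0.0505) and that of Ccrl2 without any of 10 livers.

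Other interferon genes gave 1 rise and 2 falls among 33. Oasl, an oligoadenylate synthetase-like gene, rose 1.45-fold (limma, adjusted p = 0.00583), while Ifi35 fell by 0.26 on the log2 scale. Irf3, a factor that switches on interferon-beta, fell by 0.20 on that scale. All 10 treated livers lay below the lowest vehicle liver for Irf3, as they did for 0.281% of all genes. Ifng, the gene of interferon-gamma, did not pass and lay below the median gene, at 4.70 ± 0.22 in the 10 GSK932121A livers and 4.58 ± 0.17 in the 12 vehicle livers (SD; adjusted p = 0.44). The immunoproteasome genes Psmb8, Psmb9 and Psmb10, which interferon-gamma induces, did not pass, differing by -0.05 ± 0.10, -0.04 ± 0.10 and -0.20 ± 0.10 (SE; adjusted p = 0.841, 0.874 and 0.215).

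**Figure D5:**
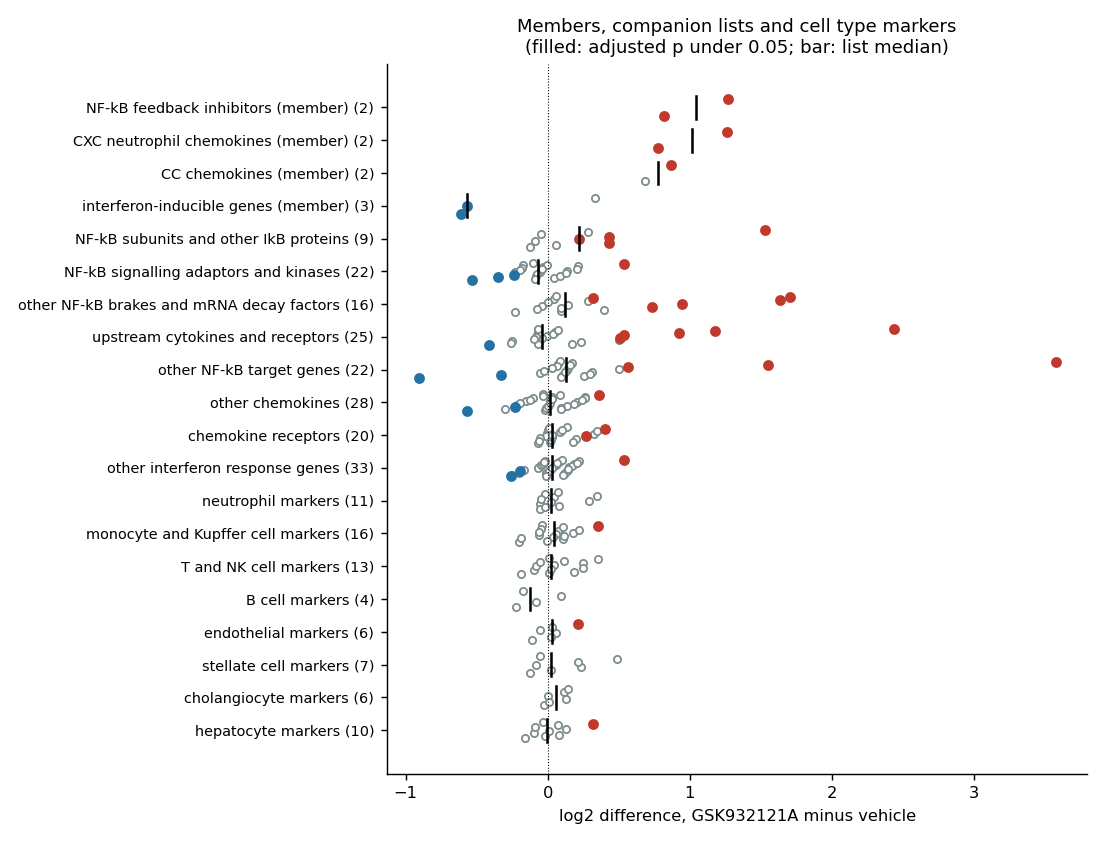
Log2 difference between GSK932121A and vehicle livers for every measured gene of the member groups, the companion lists and the cell type marker lists, with the number of measured genes in brackets. Each point is a gene, filled where it passed (red higher, blue lower after GSK932121A), and black bars are list medians; neutrophil, T and NK, B, stellate and cholangiocyte markers have no filled point.

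Markers of the cells that chemokines attract were read in the same fit. Of 11 neutrophil markers 0 passed in limma and 0 had an unadjusted p under 0.05, the list mean ran from 4.18 to 4.66 in GSK932121A livers and from 4.13 to 4.53 in vehicle livers, and 9 of the 11 lay below the median gene. The largest differences in the list were those of Cxcr2, the receptor for Cxcl1 and Cxcl2, at 0.35 ± 0.18 (SE; unadjusted p = 0.0619, adjusted p = 0.24), and of the collagenase Mmp8, at 0.29 ± 0.18 (0.115, 0.347). The neutrophil gene S100a8 was at 2.20 ± 0.14 in the 10 GSK932121A livers and 2.25 ± 0.34 in the 12 vehicle livers (SD), and Mpo at 4.48 ± 0.11 in GSK932121A livers and 4.40 ± 0.12 in vehicle livers. Of 16 monocyte and Kupffer cell markers 1 passed, Cd163, a scavenger receptor, which rose 1.28-fold (adjusted p = 0.00461), and the list mean ran from 7.03 to 7.60 after GSK932121A and from 6.99 to 7.56 after vehicle. The call of Cd163 was lost with surrogate variables and when tested against a 1.2-fold change. The Kupffer cell gene Clec4f did not pass (0.06 ± 0.08 SE; limma, adjusted p = 0.733). Besides Cd163, C1qa was the only marker of this list with an unadjusted p under 0.05 (0.22 ± 0.10 SE, limma, adjusted p = 0.151). None of 13 T and NK cell markers and none of 4 B cell markers passed (3 and 2 had an unadjusted p under 0.05). Those 3 were Nkg7, Cd8a and Gzmb, all higher after GSK932121A, at 0.35, 0.25 and 0.25 on the log2 scale. Those 2 were Cd79a and Ms4a1, both lower, at -0.22 and -0.17. The T and NK list mean ran from 4.76 to 5.23 after GSK932121A and from 4.57 to 5.09 after vehicle. Below the median gene lay 8 of the 13 T and NK markers and 3 of the 4 B cell markers.

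Of 6 endothelial markers, Lyve1 rose 1.16-fold, a call lost with surrogate variables and when tested against a 1.2-fold change. Of 10 hepatocyte markers, which checked the labelled tissue, 1 passed, the urea cycle gene Cps1, which rose 1.25-fold, and Alb was at 13.38 ± 0.04 after GSK932121A and 13.41 ± 0.03 after vehicle (adjusted p = 0.712). The call of Cps1 was lost when tested against a 1.2-fold change. None of 7 stellate cell and 6 cholangiocyte markers passed (1 and 0 had an unadjusted p under 0.05). Of the 6 cholangiocyte markers, 4 lay below the median gene. The part that cell makeup has in the differences of the members was not tested.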

How the data were processed

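Each array was mapped to its group by its label. The authors deposited log2 values made with RMA, per the submitters' processing notes; RMA corrects background, normalises between arrays and summarises probes. Which software, version and definition of probe sets were used is not given in the sources. Normalising between arrays hides any shift common to all genes, and dim probe sets are compressed. Precision is limited by how many arrays there are. Of 36685 probe sets, 18511 had 1 gene symbol, 575 several and 17599 none in the platform annotation; 18394 identifiers matched the RefSeq gene table. The highest-mean probe set stood for each of 18166 genes.

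Groups were compared with limma 3.58.1 (R 4.3.3), group alone, empirical Bayes, Benjamini-Hochberg adjustment over all genes, threshold 0.05. Spread was tested by limma on absolute deviations from group medians. Correlations used 100000 permutations within each group (Python 3.11.15, numpy 2.4.6, pandas 2.3.3, scipy 1.17.1, matplotlib 3.10.9). In simulated data for 18166 genes, limma called 62 of 67 genes changed 1.5-fold, 15 of 67 changed 1.2-fold and 10 of 17966 unchanged genes. The simulated noise was drawn separately for each gene, without factors shared by many genes. These counts therefore need not hold for the real arrays. Surrogate variables (limma's wsva, 5 of them) together explained 45.5% of the variation in group label, so fitting them can also remove a true difference.

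The members, gene lists and tests were chosen with earlier results of these data known. Named genes are all members, up to 4 of each list with the largest difference that passed, the largest opposite change, and the most similar gene of each member that passed. Tnf, Il1a, Il1b, Il6, Il18, Ifng, Icam1, Sod2, Nos2, Nfkb1, Nfkb2, Nfkbib, Nfkbie, Nfkbid, Zc3h12a, Csf1, Cxcl3, Cxcl9, Psmb8, Psmb9, Psmb10, Art3, S100a8, Cxcr2, Mmp8, Mpo, Clec4f, C1qa, Nkg7, Cd8a, Gzmb, Cd79a, Ms4a1 and Alb were added after their values were seen. Alternatives were other normalisations, filters requiring mean log2 values of 5 or 7, other tests and weights, and each array left out.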

Additional observations from a re-analysis of the deposited data

Results flagged for a closer look

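The highest Cxcl2 value among the 10 GSK932121A livers, 8.03 in replicate 14, stood apart from the other 9. The gap to the next liver (6.15 in replicate 18) was 0.571 of the group's whole range, above the critical value of 0.466 for 10 samples. Chance gives about 1 such gap in 20 groups, and both ends of 9 genes were examined. Replicate 14 also had the highest Nfkbia value (8.85) and the second highest Nfkbiz value (8.92), but its Cxcl1 value (5.83) lay inside the vehicle range. The part of this liver in the rise of Cxcl2 is given with the report's values: the log2 difference was 0.51 without it.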

How the results depend on the processing

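No paired analysis was possible because the groups share no replicate numbers. Of 310 refits of single members, 274 kept direction and side of the threshold, and 1 reversed: Cxcl2 with surrogate variables, at -0.081. In all 4 normalisations 7 members lay above 0 and 2 below. The number of members that rose, 5, became 3 with the Welch test, 1 with surrogate variables, 3 when tested against a 1.2-fold change, and 2 at a mean log2 value of at least 7, where 4 members could be tested. The number that fell, 2, became 1 with all probe sets tested, with the Welch test and with the Wilcoxon rank sum test, and 0 with surrogate variables and against 1.2-fold. With each array left out, 4 to 6 members rose and 1 to 2 fell. Of companion genes, 22 rose and 10 fell; 13 and 4 did so among the 51 with a mean of at least 7, 9 and 3 with surrogate variables, and 9 and 2 against 1.2-fold, with 19 to 24 rises and 8 to 12 falls when an array was left out. The filter at 7 left fewer genes to test; the cause of the other moves was not tested. Differences in spread near 0 changed sign when 1 array was left out: that of Irf1, -0.017 with all arrays, ran from -0.119 to 0.024, that of Ccl2 from -0.016 to 0.375 and that of Cxcl10 from -0.001 to 0.1.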
